A study of Mus musculus with 4 samples.

Results

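The TRBV13 family is a group of closely related variable segments of the mouse T-cell receptor beta chain, known in the older literature as Vβ8. Its members here were every productive TRB chain whose variable segment was named TRBV13-1, TRBV13-2, TRBV13-3 or TRBV12-2+TRBV13-2. The last is a fused name under which the deposited tables list chains, and it is kept apart below and also added in. The family was found in 59 of 218 cells with a TRB chain and in 44 of 172 TRB clones, a clone being the cells of 1 library with the same variable segment, joining segment and CDR3 nucleotides.

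The study addressed the loss of retinoic acid signaling in gliomas with mutant IDH. C57BL6 mice received 50000 neurosphere cells in the striatum at 6 weeks of age. They were then given 10 mg/kg all-trans retinoic acid (ATRA) or control into the peritoneum every other day until signs of disease. Immune cells were sorted from dissected tumors and surrounding brain by CD45, and receptors were sequenced from 5′ libraries of the 10X Genomics system, 1 library from control tumors and 1 from ATRA tumors. The labels do not say how many mice each library holds. There are no replicates, so no test between treatments was made, and the intervals given are exact 95% binomial intervals (Clopper-Pearson) that cover counting error only. Treatment and library cannot be told apart. The labels give no genotype of the neurospheres.

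A beta chain is assembled in the developing T cell by joining 1 TRBV, 1 TRBD and 1 TRBJ segment, with bases trimmed and added at the joints. The loop that spans the joints, CDR3, usually contacts the peptide, while the rest of the TRBV segment makes the CDR1 and CDR2 loops that lie mostly over the MHC molecule. Segments of the Vβ8 group are common among mouse T cells, are bound by the bacterial superantigen staphylococcal enterotoxin B, and pair with the invariant alpha chain of natural killer T cells. In the mouse genome (GRCm38.p6, chromosome 6) RefSeq places TRBV13-1 at 41116036 to 41116468, TRBV13-2 at 41121396 to 41121832 and TRBV13-3 at 41130147 to 41130585, each as a V segment. TRBV12-2 lies between TRBV13-1 and TRBV13-2, at 41118864 to 41119364, with 2031 bases between its end and the start of TRBV13-2. The fused name has no entry of its own there, and 3 of the 4 member names were matched.

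The members were first compared at the 5′ start of the CDR3, which the V segment encodes. The 1 sequence shown for each member is from its largest clone (for TRBV13-2, a clone under that name alone), read from the deposited contig tables, with the fourth codon in capitals.
TRBV13-1, ATRA: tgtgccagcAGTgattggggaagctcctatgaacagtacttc
TRBV13-2, ATRA: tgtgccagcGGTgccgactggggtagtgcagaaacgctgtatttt
TRBV13-3, ATRA: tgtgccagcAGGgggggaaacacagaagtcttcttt
TRBV12-2+TRBV13-2, control: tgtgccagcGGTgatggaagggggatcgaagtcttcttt

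The fused name read as TRBV13-2 at this place. The fourth residue was glycine in 26 of 26 chains with the fused name (100%, 86.8 to 100) and in 2 of 2 TRBV13-2 chains. It was glycine in 1 of 22 TRBV13-1 chains, 0 of 9 TRBV13-3 chains, 0 of 3 chains named TRBV12-1 or TRBV12-2 alone, and 1 of 176 chains of all other TRBV names. Of the 2 TRBV13-2 chains 1 was the receptor that was also entered under the fused name, described below. Of the 3 TRBV12 chains only 1, from the control library, was TRBV12-2, so the comparison with these 2 segments rests on very few chains. The most common first 13 bases were tgtgccagcggtg in 18 of 20 fused clones and 2 of 2 TRBV13-2 clones. They were tgtgccagcagtg in 9 of 16 TRBV13-1 clones and 2 of 6 TRBV13-3 clones. The difference between those starts is A10G, with positions counted from 1 at the first base of the CDR3.

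The single TRBV13-1 chain with glycine there had the least support of all the chains described here. It was a control chain with 1 UMI (a tag that counts an original RNA molecule), 1 read and a contig of 414 bases, against 504 to 521 bases for the other TRBV13-1 chains. The contigs themselves differed between names. Chains with the fused name had a median contig of 578.5 bases (512 to 658), TRBV13-1 chains 513 bases (414 to 521), TRBV13-3 chains 540 bases (442 to 606), and the chains named TRBV13-2 had 583 and 655 bases.

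**Figure D1:**
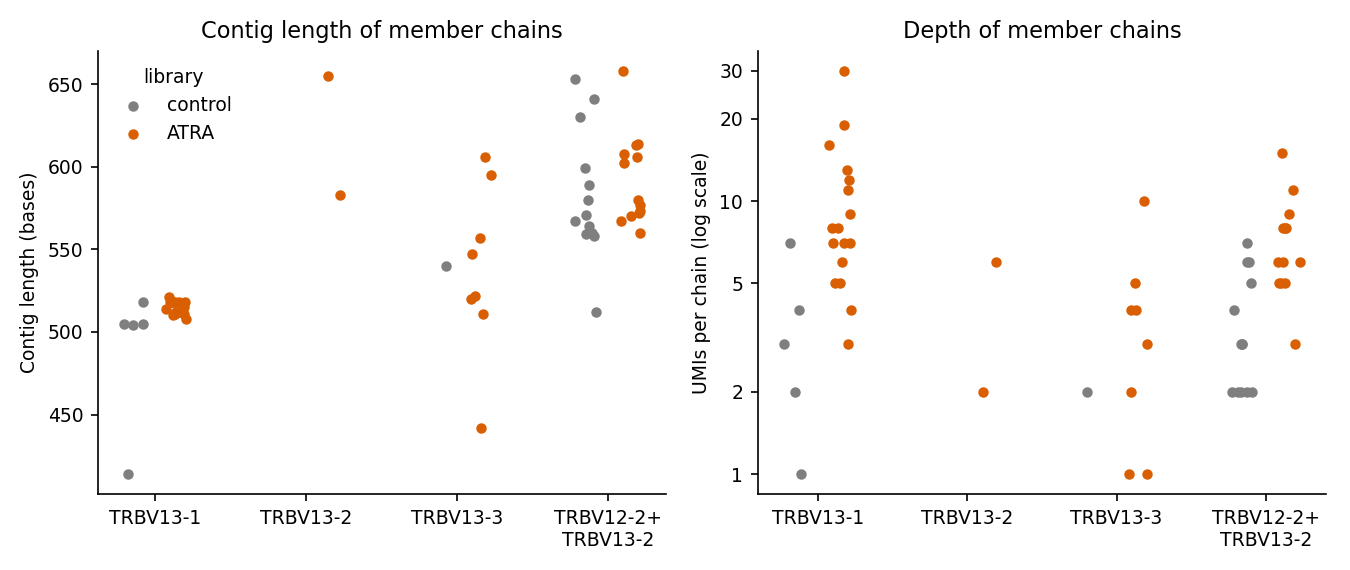
Length in bases (left) and UMIs on a log scale (right) of the contig of each productive chain, 1 point per chain, by member name, gray for the control and orange for the ATRA library. Fused-name contigs center near 578.5 bases and TRBV13-1 contigs near 513, and ATRA chains reach 30 UMIs while control chains reach 7.

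One receptor was entered under both names. In the ATRA library a cell with 8 TRB UMIs carried the chain below under the fused name, and another with 2 UMIs carried the same 45 bases under TRBV13-2.
TRBV12-2+TRBV13-2 and TRBV13-2: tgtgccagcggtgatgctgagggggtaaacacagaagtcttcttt
Both cells had the same alpha chain, TRAV7D-2 with TRAJ37, and the same deposited clonotype number. Reading the fused name as TRBV13-2 turned the 44 clones of the family into 43.

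Chains of the family had a median of 3 UMIs in the control and 6 in the ATRA library, where all other TRB chains had 4 and 6. Reads per UMI in family chains were 12561 in the control and 4968 in the ATRA library. The libraries shared 0 cell barcodes.

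Use of the family as a whole was close in the 2 libraries, while its members were not equally placed within it. The control library had 19 of 70 cells with a member chain, 27.1% (17.2 to 39.1), and the ATRA library 40 of 148, 27.0% (20.1 to 34.9). Over clones the shares were 13 of 59, 22.0% (12.3 to 34.7), and 31 of 113, 27.4% (19.5 to 36.6). The ratio of ATRA to control was 0.996 over cells (0.563 to 1.82) and 1.25 over clones (0.633 to 2.59).

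The fused name had the most control cells of all TRBV names and held rank 5 in the ATRA library. Of the control cells, 13 of 70 carried it, 18.6% (10.3 to 29.7). In the ATRA library the same number, 13 of 148, came to 8.78% (4.76 to 14.6). The ratio was 0.473 over cells (0.202 to 1.11) and 0.783 over clones (0.294 to 2.21), where 8 of 59 control and 12 of 113 ATRA clones had it. Of the 13 control cells 6 belonged to a single clone, and without the largest TRBV13 clone of each library the ratio was 0.831 (0.308 to 2.46), an alternative chosen after seeing the data. All of these intervals include equal shares.

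TRBV13-1 was the member with most cells in the ATRA library, 17 of 148, 11.5% (6.84 to 17.8), level with TRBV26 as the most used of all TRBV names there. In the control library it was used by 5 of 70 cells, 7.14% (2.36 to 15.9), the sixth rank. The ratio was 1.61 over cells (0.569 to 5.57) and 1.57 over clones (0.475 to 6.66).

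TRBV13-3 had 1 of 70 cells in the control library, 1.43% (0.0362 to 7.70), and 8 of 148 in the ATRA library, 5.41% (2.36 to 10.4). With 1 control cell the ratio of 3.78 had an interval of 0.507 to 168. Its 8 ATRA cells made 5 clones, and 6 of the 8 carried 1 recurrent CDR3 described below. TRBV13-2 under that name alone was found in 0 of 70 control cells, which allows a share of up to 4.29% at 3 counts, and in 2 of 148 ATRA cells, 1.35% (0.164 to 4.80).

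Of the 8 TRBV names with at least 10 cells over both libraries, 25% had shares that differed at least 2-fold between the libraries, and 12.5% were at least 2-fold lower in ATRA. The fused name was the 1 lower name, and TRBV13-1 was not past 2-fold. In the summed family the opposite placing of the fused name and of the 3 plain names met: the plain names together were 8.57% of control and 18.2% of ATRA cells. Their ratio of 2.13 had an interval of 0.861 to 6.30, which includes equal shares, as did that of the fused name.

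**Figure D2:**
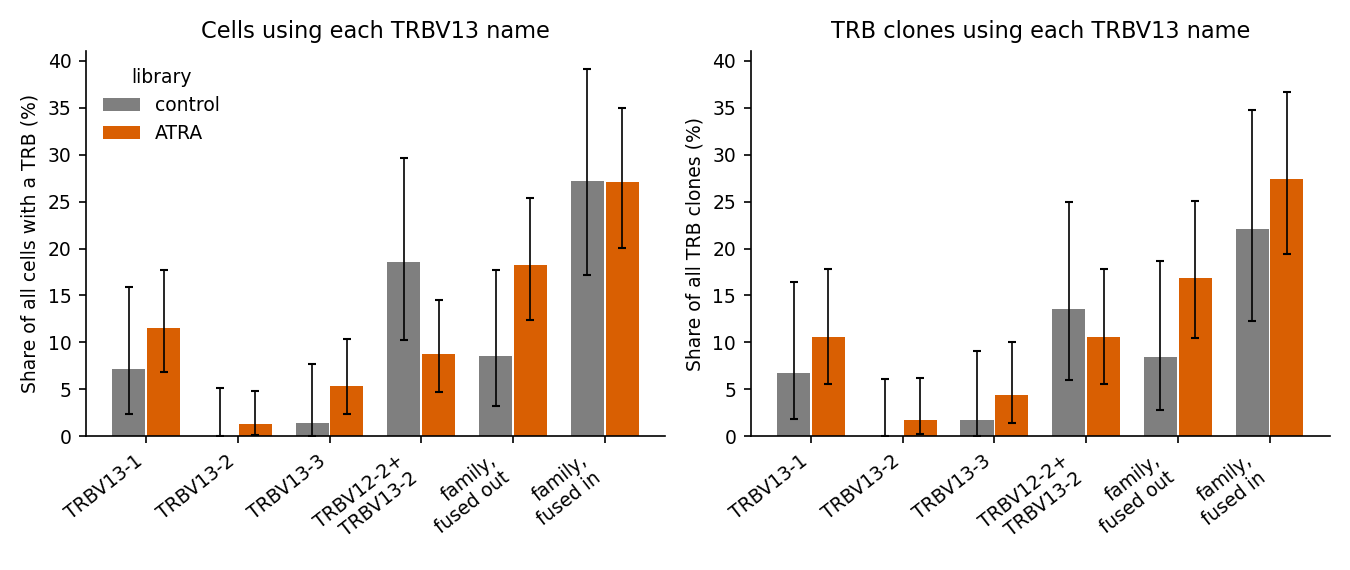
Share of cells with a TRB chain (left) and of TRB clones (right) that used each member name and the family without and with the fused name, in percent, gray for the control library (70 cells, 59 clones) and orange for the ATRA library (148 cells, 113 clones), with exact 95% intervals. The bars of the family with the fused name stand at 27.1% and 27.0% of cells, and the intervals of the libraries overlap for every name.

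The clones with most cells were then described, since most of the family was seen once. Single-cell clones were 11 of 13 in the control and 26 of 31 in the ATRA library. Cells in clones of 2 or more cells were 8 of 19 in the control library, 42.1% (20.3 to 66.5), and 14 of 40 in the ATRA library, 35.0% (20.6 to 51.7). Among chains of all other TRBV names the shares were 13 of 55, 23.6% (13.2 to 37.0), and 59 of 121, 48.8% (39.6 to 58.0). The control value rested on 1 clone: without its 6 cells the family's share was 15.4% (1.92 to 45.4). The share of other names keeps their own largest control clone, also of 6 cells, so it is not a like comparison for that value. By deposited clonotype numbers the family had 21.1% in the control and 25.0% in the ATRA library, and cells with other names 18.5% (9.25 to 31.4) and 32.7% (24.2 to 42.2). Clones are named here by the CDR3 core, the amino acids left after dropping the first 4 and the last 5.

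The largest was DGRG in the control library, the sequence shown above for the fused name, with TRBJ1-1 and a CDR3 of 13 residues. It held 6 cells, 8.57% of control cells with a TRB (3.21 to 17.7), with 2, 2, 2, 3, 4 and 7 UMIs. A single beta chain was seen with several alpha chains: 4 of the 6 cells had a TRA, and these were TRAV16D-DV11 with TRAJ23 in 2 cells, TRAV12-2 with TRAJ26 in 1 and TRAV9N-4 with TRAJ40 in 1. The TRAV12-2 chain was also found in the control TRBV13-1 cell with 1 read, in 2 other control cells and in 2 ATRA cells, the last 4 with TRBV19 or TRBV20 beta chains. The cell with TRAV9N-4 had only 4 reads for its beta chain, and the cell with TRAV12-2 held a second beta chain, TRBV20, at 2 UMIs like the first. The deposited tables split the clone over 4 clonotype numbers, and whether its 6 cells descend from 1 T cell was not tested. At a minimum of 3 UMIs per chain its 3 cells with 3, 4 and 7 UMIs are left.

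The largest in the ATRA library was DWGSS, shown above for TRBV13-1, with TRBJ2-7 and 14 residues. It held 5 cells, 3.38% of ATRA cells with a TRB (1.11 to 7.71), with 7, 9, 11, 12 and 30 UMIs, so every cell of it had at least as many UMIs as the deepest DGRG cell. TRAV5D-4 with TRAJ37 was found in 3 of its 4 cells with a TRA. TRAV21-DV12 with TRAJ53 was found in 2, and the same alpha sequences were found in 3 other ATRA cells whose beta chain was TRBV26. In 1 of these DWGSS cells both alpha chains stood beside a TRBV26 chain at 32 UMIs, next to the 30 UMIs of DWGSS, and another held a TRBV5 chain at 8 UMIs. The deposited tables give each of the 5 cells its own clonotype number.

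The other expanded clones were small. The control clone DSA (TRBV13-1, TRBJ2-3) held 2 cells with 3 and 4 UMIs, 1 of them with a TRA. In the ATRA library AGQGA (fused name, TRBJ2-3) held 2 cells, both with TRAV6-7-DV9 and TRAJ44, and PGGAN (TRBV13-1, TRBJ1-2) held 2 cells, both with TRAV5-4 and TRAJ34. The remaining expanded clones, of 3 and 2 cells, are the recurrent TRBV13-3 chains below. No member clone, and no member CDR3 at the amino acid level, occurred in both libraries (0). Such clones were rare under any name: 3 were shared, all of other TRBV names, among the 59 control and 113 ATRA clones. With so few shared clones, the 0 does not set the family apart.

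The alpha chain of AGQGA had a near copy in another clone of the fused name, TGTGD (TRBJ1-4, 1 ATRA cell). They used the same TRAV and TRAJ and differed at 3 bases, in capitals, and 1 residue, though their beta chains differed in joining segment and core.
AGQGA, TRAV6-7-DV9 and TRAJ44: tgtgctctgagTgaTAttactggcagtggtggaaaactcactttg
TGTGD, TRAV6-7-DV9 and TRAJ44: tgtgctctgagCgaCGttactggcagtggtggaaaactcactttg

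**Figure D3:**
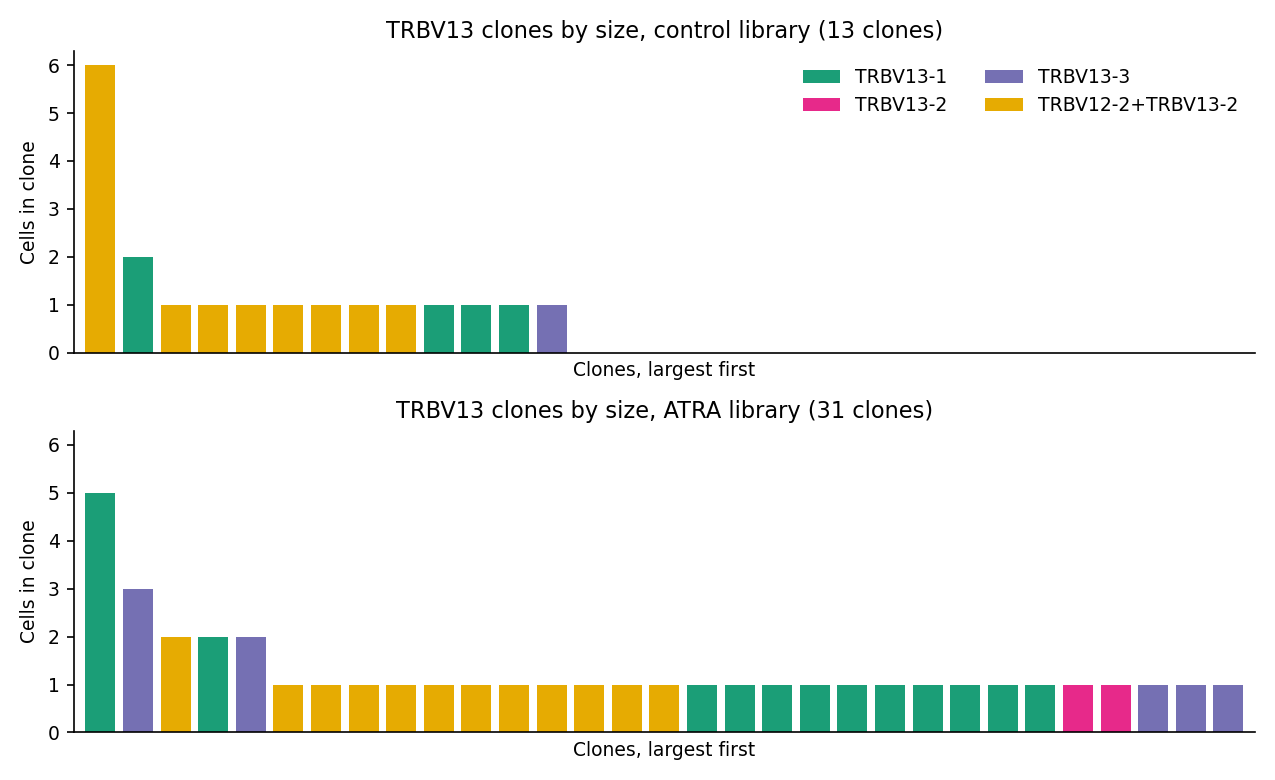
Cells in each TRBV13 clone, largest first, with 1 bar per clone colored by member name, for the 13 clones of the control library (top) and the 31 of the ATRA library (bottom). The largest control clone has the fused name and 6 cells, the largest ATRA clone has TRBV13-1 and 5 cells, and most clones hold 1 cell.

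Similar CDR3s across members were dominated by 1 sequence in the ATRA library, with the core GGN and 12 residues. It was carried by 7 cells, 4.73% of ATRA cells with a TRB (1.92 to 9.50), on 2 V segments and in 4 nucleotide forms, all with TRBJ1-1. TRBV13-3 carried it in 6 cells and TRBV13-1 in 1. The 36 bases differed at 3 positions, in capitals, and these are positions 10, 12 and 18.
TRBV13-1, 1 cell: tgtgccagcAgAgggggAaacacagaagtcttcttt
TRBV13-3, 1 cell: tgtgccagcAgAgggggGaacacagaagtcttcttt
TRBV13-3, 3 cells: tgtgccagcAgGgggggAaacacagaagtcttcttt
TRBV13-3, 2 cells: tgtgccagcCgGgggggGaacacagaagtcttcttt

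The alpha chains of these cells were alike as well. All 6 cells with a TRA used TRAJ34 (100%, 54.1 to 100), with 2 TRAV segments and 4 CDR3s of 13 residues. Each TRAV14D-1 sequence was seen in 2 cells of 1 beta clone, so the 6 cells are not independent and the interval is too narrow. The CDR3s ended in the same 23 bases, in capitals. That end lies on the side of the joining segment, so it goes with the shared TRAJ34 and is not a separate likeness.
TRAV14D-1, 2 cells with TRBV13-3: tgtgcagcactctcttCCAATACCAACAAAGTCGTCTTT
TRAV14D-1, 2 cells with TRBV13-3: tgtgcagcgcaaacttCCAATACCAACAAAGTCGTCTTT
TRAV9N-4, 1 cell with TRBV13-3: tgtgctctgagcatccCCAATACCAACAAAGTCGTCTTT
TRAV9N-4, 1 cell with TRBV13-1: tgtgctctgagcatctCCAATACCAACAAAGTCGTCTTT
TRAV14D-1 lies at 52855665 to 52856166, TRAV9N-4 at 53294596 to 53295030 and TRAJ34 at 54184699 to 54184756 on chromosome 14 (GRCm38.p6). In these 6 cells TRAV14D-1 was paired only with TRBV13-3, in 4 cells. The TRAV9N-4 chains of the TRBV13-1 cell and of 1 TRBV13-3 cell differed from each other by 1 base.

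TRAJ34 was counted in the other cells too. It was found in 2 of the 26 other ATRA cells of the family with a TRA, 7.69% (0.946 to 25.1), and in 7 of 89 ATRA cells with another TRBV only, 7.87% (3.22 to 15.5). It was found in 2 of 12 ATRA cells without a TRB, and these 2 carried the second TRAV14D-1 sequence above. In the control library 0 of 34 cells with a TRA used it, which allows a share of up to 8.82% at 3 counts, and no control chain had the GGN core with this CDR3.

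These chains were shallow. The 7 cells had 21 TRB UMIs in all, the TRBV13-3 chains 1 to 5 each and the TRBV13-1 chain 3, and 2 TRBV13-3 chains had 1 UMI. At a minimum of 3 UMIs per chain 5 cells and all 4 nucleotide forms were left, with TRAJ34 in 3 of 3 cells that kept a TRA. The TRBV13-1 contig of 512 bases was within the length range of the other TRBV13-1 chains of that library, 508 to 521, and the TRBV13-3 contigs ran from 442 to 606. Since the first 9 bases of the CDR3 are the same in all TRBV13-1 and TRBV13-3 chains, the name of the segment rests on the contig outside the CDR3, which was not used here.

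Across member names 4 of 620 pairs of clones had CDR3s with at most 1 residue different, 0.645%, all of them identical and within the ATRA library. They were the 3 pairs of the GGN chain of TRBV13-1 with those of TRBV13-3, and the pair of fused and TRBV13-2 chains described above. Pairs between a member and another TRBV name numbered 2 of 5632, 0.0355%, and pairs between other names 43 of 7484, 0.575%. Both member pairs with another name came from the TRBV13-1 clone GTGGY of the ATRA library with TRBJ2-1, set beside LTGGY of TRBV10 and FTGGY of TRBV3. GTGGY was also 1 deletion away from the longer cores LGTGGY, AGTGGY and KGTGGY of TRBV26 and TRBV14, and 16 pairs of a member with another name lay within 1 edit in all.

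Joining segments were counted next, in the family and beside other TRBV names. TRBJ2-3 had 5 of the 19 family cells of the control library, 26.3% (9.15 to 51.2), and 5 of the 40 of the ATRA library, 12.5% (4.19 to 26.8). In cells with other TRBV names it was used by 1 of 54, 1.85% (0.0469 to 9.89), and 3 of 113, 2.65% (0.551 to 7.56). Over clones the family had 4 of 13 and 4 of 31 with TRBJ2-3 against 1 of 46 and 2 of 82, so the cells of 1 clone do not make the count. Of the 5 control cells 4 were TRBV13-1, and in the ATRA library 3 of the 5 had the fused name. The intervals of family and other names overlap in each library. Over both libraries the family had 10 of 59 cells, 16.9% (8.44 to 29.0), against 4 of 167, 2.40% (0.656 to 6.02). Over clones these were 8 of 44 and 3 of 128. Of the 4 control clones 1 was the TRBV13-1 chain with 1 UMI and 1 read.

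TRBJ1-1 was the most used segment of the family in both libraries, over different numbers of clones. In the control library it was found in 6 of 19 cells, 31.6% (12.6 to 56.6), all of them the clone DGRG, so 1 of 13 clones. In the ATRA library it was found in 11 of 40 cells, 27.5% (14.6 to 43.9), and in 8 of 31 clones, 25.8% (11.9 to 44.6), of which 4 had the GGN core. Other TRBV names used it in 9.26% of control and 10.6% of ATRA cells. Over clones they had 5 of 46, 10.9% (3.62 to 23.6), in the control and 9 of 82, 11.0% (5.14 to 19.8), in the ATRA library. The family was thus the lower over control clones, and the clone intervals overlap in both libraries. TRBV13-3 had it in 7 of its 8 ATRA cells and 4 of 5 clones.

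TRBJ2-1 was the segment used most with other TRBV names, at 35.2% (22.7 to 49.4) in the control and 35.4% (26.6 to 45.0) in the ATRA library. In the family it stood at 10.5% (1.30 to 33.1) and 12.5% (4.19 to 26.8) of cells. Over clones the difference was smaller, 2 of 13 and 5 of 31 against 12 of 46 and 23 of 82, and TRBV13-1 by itself had it in 4 of 12 ATRA clones, 33.3%, against the 28.0% of other names. The TRBJ2-1 chains of other names include the related cores LGTGGY, AGTGGY and KGTGGY of TRBV26 and TRBV14, with up to 8 ATRA and 3 control cells in a clone. The contrast was not computed without these clones, so how far it belongs to them was not tested. TRBJ2-2 was found in 0 of 19 and 0 of 40 family cells, which allows shares of up to 15.8% and 7.5% at 3 counts (exact upper bounds 17.6% and 8.81%). It was found in 7 of 54 and 6 of 113 cells with other names, shares below those limits. A lower share was thus not detectable within either library. Over both libraries the family had 0 of 59 cells (0 to 6.06%), against 13 of 167, 7.78% (4.21 to 12.9), and these intervals overlap.

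The third place in the control library was shared by TRBJ2-1, TRBJ2-5 and TRBJ2-7 with 2 cells each, and in the ATRA library TRBJ2-7 was second with 7 of 40 cells, 17.5%, 5 of them DWGSS. The TRBJ2 cluster as a whole made up 57.9% (33.5 to 79.7) of family cells in the control library and 52.5% (36.1 to 68.5) in the ATRA library, against 72.2% and 68.1% with other names. The control share followed the clone DGRG: it was 84.6% without its 6 cells and 76.9% over clones, where other names had 31 of 46, 67.4%, so over clones the family was the higher. Over ATRA clones it was the lower, at 51.6% against 63.4%.

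**Figure D4:**
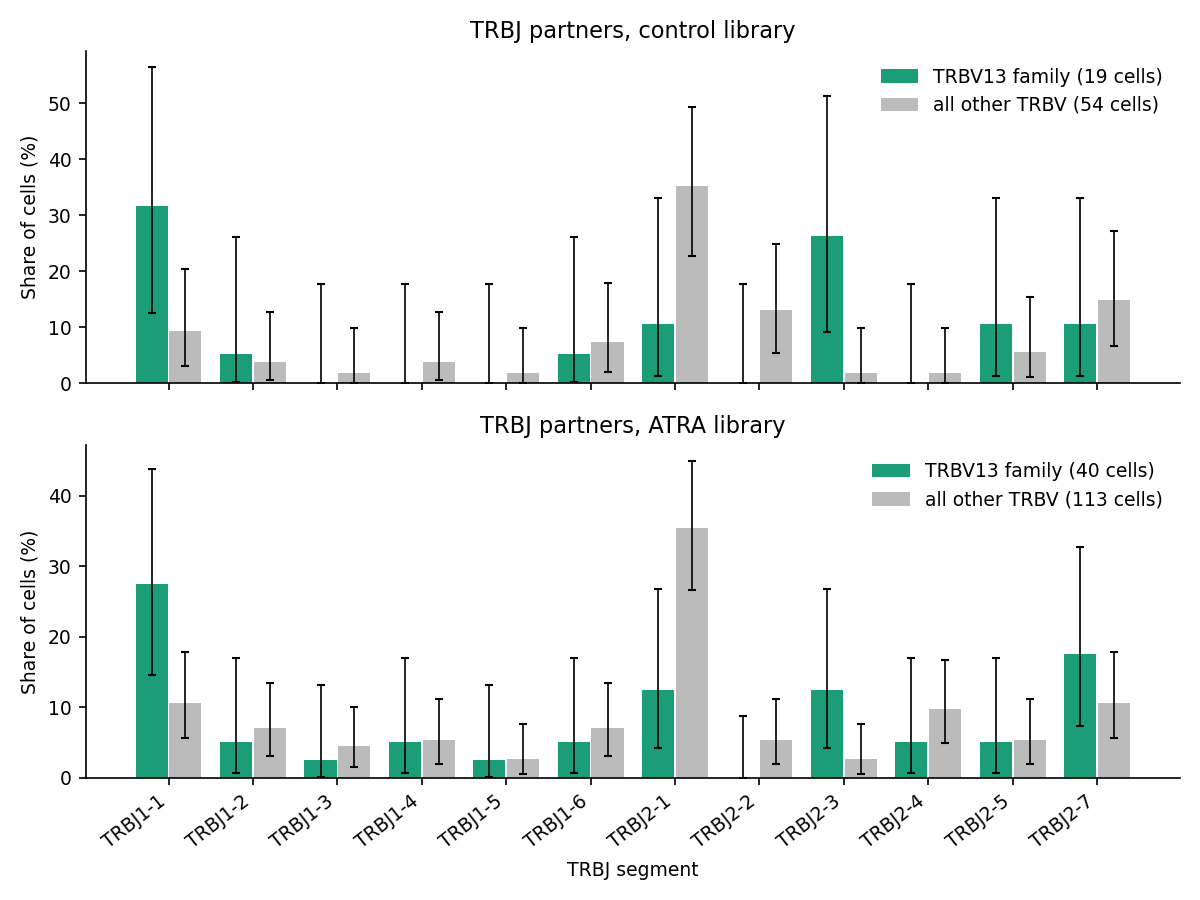
Share of cells that used each TRBJ segment, in percent with exact 95% intervals, for the TRBV13 family with the fused name (green) and all other TRBV names (gray), in the control (top) and ATRA (bottom) libraries. TRBJ2-3 stands at 26.3% and 12.5% in the family against 1.85% and 2.65%, and TRBJ2-1 at 10.5% and 12.5% against 35.2% and 35.4%.

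An alpha partner was found for 10 of 19 control cells of the family, 52.6% (28.9 to 75.6), and for 32 of 40 ATRA cells, 80.0% (64.4 to 90.9). Cells with other TRBV names gave overlapping intervals, with 23 of 54, 42.6% (29.2 to 56.8), and 93 of 113, 82.3% (74.0 to 88.8). Receptor depth moved with this, as given above, and its part was not tested. At a minimum of 3 UMIs per chain 0 of 11 control and 55.6% of ATRA cells of the family kept a partner.

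The 10 control partners were spread, with 2 cells each for TRAV12, TRAV16 and TRAV9 and 2 each for TRAJ23, TRAJ26 and TRAJ56. In the ATRA library the leading families were TRAV5 with 7 of 32 cells, 21.9% (9.28 to 40.0), TRAV6 with 6 cells, 18.8%, and TRAV14 with 5 cells, 15.6%. In cells with other TRBV names they were found in 6.45%, 21.5% and 5.38% of 93. Few clones made up the family's counts of TRAV5 and TRAV14, though not of TRAV6: 5 of the 7 TRAV5 cells were DWGSS or PGGAN and 4 of the 5 TRAV14 cells were GGN. Counted as distinct alpha CDR3 sequences, TRAV5, TRAV6 and TRAV14 had 4, 5 and 3 in the family and 4, 14 and 5 with other names. The leading joining segments were TRAJ34 with 8 cells, 25.0%, 6 of them GGN, and TRAJ37 and TRAJ44 with 5 cells each, 15.6% (5.28 to 32.8), on 2 and 4 distinct alpha CDR3s. TRAJ37 was found in 5.38% and TRAJ44 in 0 of 93 ATRA cells with other names, the latter allowing up to 3.23%. In the control library TRAJ44 was in 0 of 10 family cells and in 1 of 23 cells with other names. The 5 TRAJ44 cells were 4 with the fused name, 2 of them AGQGA, and 1 with TRBV13-2, so all 5 had TRBV13-2 in their V name.

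The alpha chain of invariant natural killer T cells, TRAV11 with TRAJ18, was looked for because Vβ8 chains are its usual partners. It was found in 0 of 42 family cells with a TRA, which allows a share of up to 7.14%, and in 0 of 167 cells with a TRA of any kind, which allows up to 1.80%.

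Cells with more than 1 beta chain were 3 of 19 control and 5 of 40 ATRA cells of the family. Over all cells with a TRB, 4 of 70 control and 13 of 148 ATRA cells had more than 1, and 3 and 5 of these held a family chain. Among cells with a chain of another name they were 4 of 54 and 13 of 113. A cell with more than 1 TRB can count on both sides and has more chains that could be a member. By name the family cells with more than 1 TRB were 5 TRBV13-1, 2 fused and 1 TRBV13-3 cells. No doublet caller was run, so whether such barcodes hold 1 cell or several was not tested.

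CDR3 length differed between members. Over the clones of both libraries the mean was 12 residues for TRBV13-3 (SD 0.632, n = 6 clones), 13.4 for TRBV13-1 (SD 1.26, n = 16) and 14.2 for the fused name (SD 1.09, n = 20), while both TRBV13-2 clones had 15. TRBV13-3 clones had 11 to 13 residues and fused clones 12 to 16, so their ranges met at 12 and 13, and 3 of the 6 TRBV13-3 clones were the GGN chain. The whole family had 13.5 in the control (SD 1.51, n = 13) and 13.7 in the ATRA library (SD 1.25, n = 31), against 14.3 (SD 1.20, n = 46) and 14.0 (SD 1.34, n = 82) for other names. Both differences were smaller than 1 SD.

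**Figure D5:**
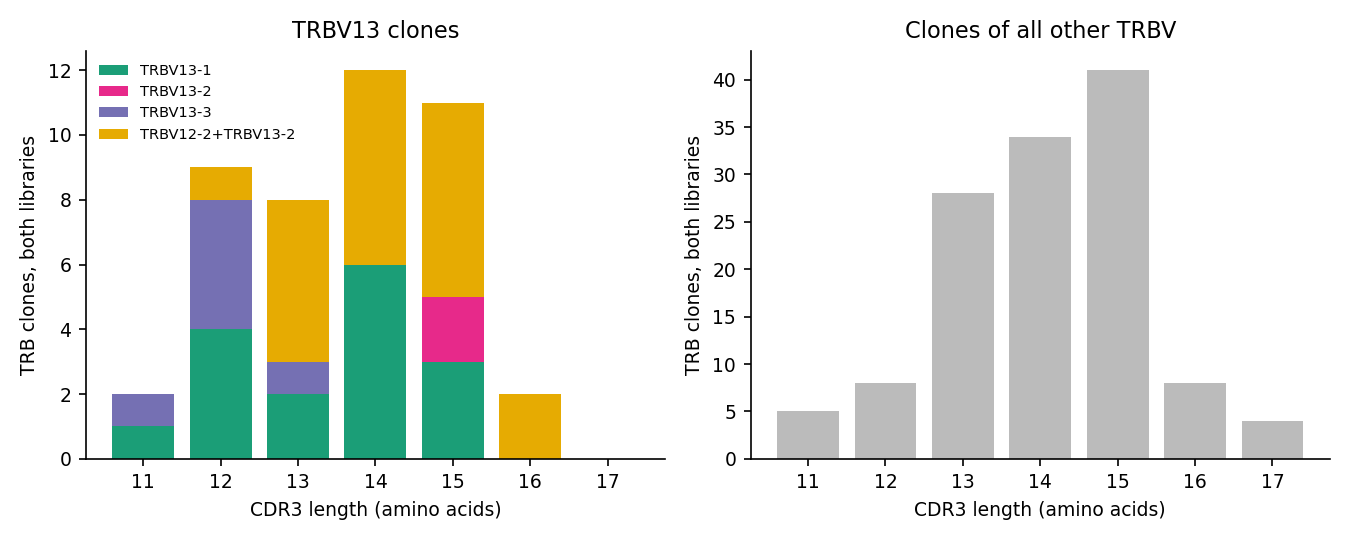
Number of TRB clones of both libraries at each CDR3 length in amino acids, stacked by member name for the 44 TRBV13 clones (left) and for the 128 clones of all other TRBV names (right); the vertical scales differ. TRBV13-3 clones lie at 11 to 13 residues, fused-name clones at 12 to 16.

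Within the CDR3, the fifth residue was aspartate in 21 of 44 family clones, 47.7% (32.5 to 63.3), and in 5 of 128 other clones, 3.91% (1.28 to 8.88). Within the family it followed the name, with 14 of 20 fused clones, 1 of 2 TRBV13-2, 5 of 16 TRBV13-1 and 1 of 6 TRBV13-3 clones. This residue stands where the V segment meets the joint, and the shares describe sequence near the V end. In the control library it was found in 9 of 13 and in the ATRA library in 12 of 31 family clones.

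The strings of 3 residues held by most cores were GGN in 4 of 44 clones, 9.09% (2.53 to 21.7), and DWG, GSA, GTG and TGG in 3 each, 6.82% (1.43 to 18.7). GGN was held by 2 of 128 other clones, 1.56%, DWG by 4 and GSA by 0, which allows up to 2.34%. GSA was spread over TRBV13-1, TRBV13-2 and the fused name, 1 clone each. All of these clones used TRBJ2-3, which only 3 of the 128 other clones used, so the string was not told apart from the use of that joining segment. The strings GTG and TGG, both within the longer cores LGTGGY, AGTGGY and KGTGGY of TRBV26 and TRBV14, were more frequent outside the family, in 19 of 128, 14.8% (9.18 to 22.2), and 21 of 128 clones, 16.4% (10.5 to 24.0).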

How the data were processed

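The receptor tables of 1 control and 1 ATRA library were used; the gene expression libraries were not used here. Per the submitters' processing notes the tools were bcl2fastq 2.20.0 and Cell Ranger 3.1.0 with genome GRCm38; their settings are not given in the sources used here. The deposited counts are reads and UMIs per assembled contig, and the deposited contig length is in bases. Contigs, cells and UMIs numbered 159, 74 and 539 in the control and 496, 160 and 2520 in the ATRA library, so counting error is wide. Productive TRB contigs with a member name were kept at any UMI number, and barcodes with several TRB chains were kept, with no doublet calling; clones, shares, exact intervals and CDR3 comparisons were computed with Python 3.11.15, pandas 2.3.3 and scipy 1.17.1, after the intervals and the CDR3 matching were tested on simulated data. The ratio of shares has an exact interval conditional on the summed cells.

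Named were all members, the 3 leading TRBJ, TRAV and TRAJ per library, clones of at least 2 cells, similar CDR3s and the 3 leading strings, with ties; the search for TRAV11 with TRAJ18, the fifth residue, near copies of alpha chains and single named chains were added after values were seen. Members and lists were chosen with earlier results of these data known. Alternatives covered UMI minimums of 2 and 3, cells with extra chains, pairing, the fused name, the definition of a clone, CDR3 distance and core. RefSeq segments (GRCm38.p6) gave positions; germline V ends were not used here.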

Additional observations from a re-analysis of the deposited data

Results flagged for a closer look

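Nonproductive contigs under a TRBV13 name, which no comparison above used, numbered 7 in the control and 9 in the ATRA library, with median lengths of 366 and 355 bases. They were singled out because they are signal outside the productive chains. Of them 4 control and 5 ATRA contigs had the CDR3 of a productive family chain, and 0 did so in the same cell with the same nucleotides. In the ATRA library 1 contig of 300 bases and 1 UMI under TRBV13-2 had a CDR3 whose productive copy carries the fused name.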

How the results depend on the processing

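Of 87 values under alternative settings, 78 stayed within the main value's 95% interval (for length within 1 SD over clones, for counts within 1.5 times), and 9 moved outside it. This tally is a weak measure of stability. Some values could not move: the fused-name start was 100% at every UMI minimum, and the 4 similar pairs were identical already. The intervals are wide, so a fall from 42.1% to 21.1% of control family cells in expanded clones counted as staying within. Without the fused name the family's share of cells was 8.57% in the control and 18.2% in the ATRA library, its share of clones 8.47% and 16.8%, and its TRBJ2 share in the control library 83.3%. At 3 UMIs per chain the share with a TRA partner was 0% in the control and 55.6% in the ATRA library. Without the clone DGRG, a choice made after seeing the data, the TRBJ2 share in the control library was 84.6% and the share of cells in expanded clones 15.4%; fewer cells entered in each of these cases. By deposited clonotype numbers, 21.1% of control and 25.0% of ATRA family cells were in expanded clones. A minimum of 3 UMIs left 11 of 19 control and 36 of 40 ATRA family cells. No paired analysis was possible because each treatment has 1 library and the labels carry no replicate numbers.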
